A study of Mus musculus with 24 samples.

Results

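Diaphragm libraries 2 and 8 were set against diaphragm libraries 1 and 7, 4 of the 16 usable libraries of a mouse study of macrophages from the diaphragm and from the dura mater, the tough layer that lines the skull. The pairs were chosen by column number after the levels of all genes in these libraries, H2-Ab1, Marco, Cd207 and Col1a1 among them, had been seen, so each difference between libraries 2 and 8 and libraries 1 and 7 is given below as a description, with no test. Each of these 4 numbers had 2 columns of counts, with and without the prefix mar, which were summed here into 1 library. The labels list 24 samples, 9 from dura and 15 from diaphragm, with 3 macrophage subsets in each tissue, but the column numbers could not be matched to the subsets, so what distinguishes libraries 2 and 8 from libraries 1 and 7 is known only by these numbers. All 4 libraries share the labels' mouse strain C57BL/6, a wild type genotype, an age of 17 weeks and a steady state condition. The title of the study names RAG-1 deficient mice given T cells, which the sample labels do not mention. The same genes were tested in the dura, between 3 libraries marked P5 and 3 marked P4, from mice with the same labels. The meaning of P4 and P5 is not stated in the labels.

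Macrophages were sorted by flow cytometry from perfused mice and their RNA was sequenced in bulk, as short single-end reads without strand information. The protocol describes the dissection of the dura only. Whether libraries of 1 pair came from separate mice is not stated, so any spread between them may be technical. In bulk RNA, fewer cells of a type and less RNA per cell cannot be told apart, and reads of a gene and of an antisense partner cannot be separated.

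Tissue macrophages exist in several states that differ in how they present antigen. MHC class II molecules carry peptides of engulfed proteins to the cell surface for CD4 T cells, and their genes are switched on together by the co-activator Ciita. Long-lived resident macrophages that express the hyaluronan receptor Lyve1 usually carry little MHC class II and sit along vessels and in connective tissue, while macrophages recently derived from blood monocytes keep the chemokine receptor Ccr2 and tend to carry more. The diaphragm is a sheet of skeletal muscle covered by mesothelium, with the liver on its abdominal face.

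The 4 libraries held 23498989 and 23034792 counts in libraries 2 and 8, and 21265190 and 25748458 counts in libraries 1 and 7. The 2 columns of 1 number differed by little more than sampling noise, with a chi-square per degree of freedom between 1.008 and 1.169 over genes. This value was 11.43 to 13.56 between columns of numbers 2 and 8, 22.95 to 26.29 between columns of numbers 1 and 7, and 96.07 to 147.4 across the pairs. The 3 remaining diaphragm libraries, numbers 3, 6 and 9, are given as context. Levels are counts per 1000000 counts of a library (CPM), and a difference is in log2(CPM + 1), which understates the change of genes with low levels. A count of 3 corresponded to 0.139 and 0.137 CPM in libraries 2 and 8, and to 0.136 and 0.111 CPM in libraries 1 and 7.

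A gene was called apart where both libraries of one pair were at least 2-fold above both of the other in CPM + 1. Of 12789 genes that averaged 1 CPM or more, 225 (1.76%) were apart and higher in libraries 2 and 8, and 1028 (8.04%) were apart and lower. The median difference over these genes was 0.01, and library totals in place of the scaling factors shifted it by -0.15. Between single libraries, a looser rule than apart, 5.13% of genes differed at least 2-fold between library 2 and library 8, and 7.55% between library 1 and library 7. Of 6079 genes with at least 20 CPM in both pairs, 29 differed so between libraries 2 and 8 and 37 between libraries 1 and 7. Of the same genes 81 were apart and higher and 91 apart and lower. With a mean of at least 5 CPM over the 4 libraries 180 genes were apart and higher and 766 apart and lower. Of the 225 higher genes 144 were under 20 CPM in libraries 1 and 7, and of the 1028 lower genes 937 were under 20 CPM in libraries 2 and 8. With fewer libraries to satisfy the rule the higher count was 352 without library 8, 386 without library 1 and 515 without library 7. Some lists below are also described by members that were higher or lower in both libraries of a pair without this gap. The share of all genes in that order is not given here, so those numbers have no background to be read against.

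Libraries of both pairs carried the RNA of macrophages. Csf1r, the receptor for the growth factor that keeps macrophages alive, stood at 4939 and 5002 CPM in libraries 2 and 8, against 3361 and 3828 CPM in libraries 1 and 7. Adgre1, which encodes F4/80, stood at 1849 and 1614 CPM in libraries 2 and 8, against 1086 and 1081 CPM in libraries 1 and 7. None of 17 general macrophage genes was apart, although 15 of them were higher in both of libraries 2 and 8. The T cell receptor component Cd3e was low, at 0.926 and 0.411 CPM in libraries 2 and 8 and at 0 and 1.70 CPM in libraries 1 and 7.

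The 4 genes that mark the comparison went different ways. H2-Ab1, the beta chain of the class II molecule I-A, stood at 8371 and 8118 CPM in libraries 2 and 8, against 317.1 and 390.5 CPM in libraries 1 and 7, a ratio of means of 23.3. Cd207, which encodes the C-type lectin langerin, stood at 151.1 and 255 CPM in libraries 2 and 8, against 14.1 and 39.7 CPM in libraries 1 and 7. Col1a1, a fibrillar collagen chain made by fibroblasts, stood at 151.5 and 190.7 CPM in libraries 2 and 8, against 4681 and 1988 CPM in libraries 1 and 7. These 3 genes were apart. Marco, a scavenger receptor for bacteria and particles, stood at 448.8 and 407.6 CPM in libraries 2 and 8, against 152.9 and 382.9 CPM in libraries 1 and 7. Library 7 was close to libraries 2 and 8 for Marco, so the gene separated library 1 from the other 3 more than one pair from the other.

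**Figure D1:**
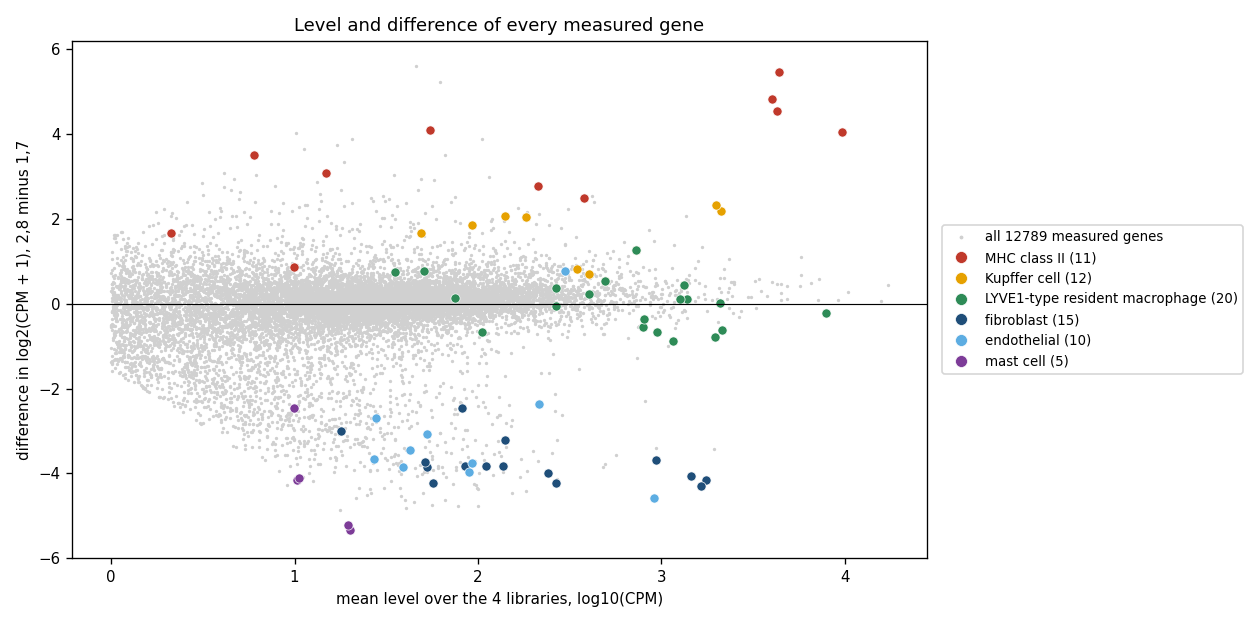
Each point is 1 of the 12789 measured genes, with its mean level over the 4 libraries on the x axis (log10 of CPM) and the difference in log2(CPM + 1), libraries 2 and 8 minus libraries 1 and 7, on the y axis. Coloured points are members of 6 lists, with the number measured in brackets, and MHC class II genes lie above 0 while fibroblast, endothelial and mast cell genes lie mostly below it.

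MHC class II was the list with the highest median difference, 3.49. Of its 11 genes 10 were apart and higher in libraries 2 and 8, and all 11 were higher in both libraries. The summed level of the list was 45270 and 42930 CPM in libraries 2 and 8, against 1950 and 2274 CPM in libraries 1 and 7, a ratio of 20.9. Libraries 3, 6 and 9 held still more, 85730 to 91130 CPM, so libraries 2 and 8 lay between the other diaphragm libraries.

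The regulator and the chains of the classical molecules lay far apart. Ciita, the co-activator of class II transcription, stood at 97.8 and 110.9 CPM in libraries 2 and 8, against 3.73 and 7.002 CPM in libraries 1 and 7, a ratio of 19.4. H2-Eb1, the beta chain of I-E, stood at 8731 and 8443 CPM in libraries 2 and 8, against 174 and 213.8 CPM in libraries 1 and 7, a ratio of 44.3. H2-Aa, the alpha chain of I-A, stood at 8272 and 7236 CPM in libraries 2 and 8, against 238.6 and 309.7 CPM in libraries 1 and 7, a ratio of 28.3. For none of these did the spread within a pair come near the gap between pairs. Cd74, the invariant chain that guards the peptide groove, stood at 18650 and 18020 CPM in libraries 2 and 8, against 1047 and 1168 CPM in libraries 1 and 7, a ratio of 16.6. H2-Eb2, a second I-E beta gene, was low, at 12.8 and 10.9 CPM in libraries 2 and 8, against 0 and 0.295 CPM in libraries 1 and 7. Its ratio of 80.3 was the widest of the list but rests on few counts in libraries 1 and 7, so its size is uncertain.

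Genes for the peptide exchange machinery were also apart, by smaller ratios. H2-DMa, the alpha chain of the exchange factor H2-M, stood at 670.3 and 621.7 CPM in libraries 2 and 8, against 114.5 and 112.2 CPM in libraries 1 and 7, a ratio of 5.70. H2-DMb1, one of its beta chains, stood at 416.9 and 330.2 CPM in libraries 2 and 8, against 48.1 and 60.0 CPM in libraries 1 and 7, a ratio of 6.91. H2-DMb2, the other beta chain, stood at 30.6 and 23.6 CPM in libraries 2 and 8, against 1.27 and 3.80 CPM in libraries 1 and 7. The counts of the near-identical genes H2-DMb1 and H2-DMb2 may be shared in part. The alpha chain H2-Oa of the inhibitor of H2-M stood at 4.49 and 3.01 CPM in libraries 2 and 8, against 0.227 and 0.774 CPM in libraries 1 and 7. Its partner H2-Ob was the 1 gene of the list that was not apart, at 13.9 and 12 CPM in libraries 2 and 8, against 5.41 and 8.22 CPM in libraries 1 and 7.

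**Figure D2:**
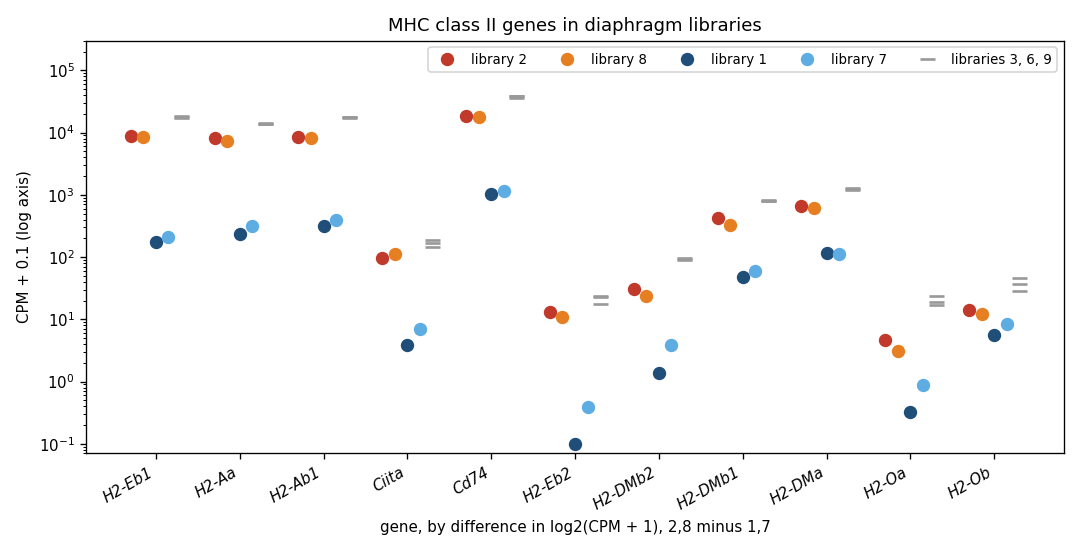
Levels of the 11 MHC class II genes in each diaphragm library, as CPM + 0.1 on a log axis, with genes in order of the difference between libraries 2 and 8 and libraries 1 and 7. Both of libraries 2 and 8 lie above both of libraries 1 and 7 for every gene, and libraries 3, 6 and 9 (grey bars) lie above libraries 2 and 8.

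Class II promoters share a short module in which a Y box, the reverse complement of CCAAT, is bound by the factor NF-Y beside the sites for RFX and CREB factors, and Ciita docks on the proteins bound there. The letters TGATTGG were searched on both strands of the 250 bases before each start site in the RefSeq promoter table (GRCm38.p6). The table holds a promoter for 8 class II genes, and 7 of these promoters held the letters, against 7.23% of all 32851 promoters. Each of the 7 matches lay between 45 and 102 bases before the start. H2-DMa had 2 promoters in the table and neither held the letters. A match is a description of the sequence and not a measured binding site. The 120 bases before the start are shown for 4 genes that were apart, 5′ to 3′ along the gene, with the matched letters in capitals, from chr17:34287824-34287943 on the minus strand for H2-Aa, chr17:34305747-34305866 on the plus strand for H2-Eb1, chr17:34153071-34153190 on the plus strand for H2-DMb1 and chr17:34325555-34325674 on the plus strand for H2-Eb2, so that the shared letters can be compared where ratios differ.
H2-Aa: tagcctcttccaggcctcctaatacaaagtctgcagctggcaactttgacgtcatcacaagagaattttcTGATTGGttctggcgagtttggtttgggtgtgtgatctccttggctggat
H2-Eb1: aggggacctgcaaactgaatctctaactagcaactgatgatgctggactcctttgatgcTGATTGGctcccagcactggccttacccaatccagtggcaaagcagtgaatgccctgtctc
H2-DMb1: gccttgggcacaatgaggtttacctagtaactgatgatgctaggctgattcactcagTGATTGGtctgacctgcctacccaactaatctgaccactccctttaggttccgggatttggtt
H2-Eb2: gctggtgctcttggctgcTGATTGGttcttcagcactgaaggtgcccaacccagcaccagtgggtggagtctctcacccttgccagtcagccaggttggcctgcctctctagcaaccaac

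Class I presentation differed far less. All 14 class I genes were higher in both of libraries 2 and 8, with a median difference of 0.59, but only Nlrc5 was apart. Nlrc5, the class I counterpart of Ciita, stood at 32.6 and 32.2 CPM in libraries 2 and 8, against 11.7 and 14.5 CPM in libraries 1 and 7. H2-K1, a classical class I heavy chain, stood at 2722 and 2896 CPM in libraries 2 and 8, against 1508 and 1689 CPM in libraries 1 and 7, which was under the 2-fold gap. The non-classical gene H2-M2 had the largest difference of any named gene, 5.60, with 82.9 and 99.3 CPM in libraries 2 and 8, against 0.455 and 1.47 CPM in libraries 1 and 7.

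Signals that T cells receive beside the antigen were higher for some ligands only. Of 11 co-stimulation genes 2 were apart, both higher in libraries 2 and 8. Cd274, which encodes the inhibitory ligand PD-L1, stood at 156.4 and 98.2 CPM in libraries 2 and 8, against 28.7 and 36.7 CPM in libraries 1 and 7. Tnfsf4, the OX40 ligand, was low, at 2.83 and 1.46 CPM in libraries 2 and 8, and had no count in libraries 1 and 7, which makes it at least 15.7-fold higher against the level of 3 counts per library. Cd86, which binds CD28, stood at 260.1 and 210.1 CPM in libraries 2 and 8, against 124.6 and 162.7 CPM in libraries 1 and 7, and was not apart. Cd80, the other CD28 ligand, and Vsir, an inhibitory ligand, overlapped between the pairs.

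Genes linked to monocyte origin and to dendritic cells did not move as one. Ccr2, the receptor that brings monocytes out of the blood stream, stood at 128.6 and 128.7 CPM in libraries 2 and 8, against 19.6 and 23.6 CPM in libraries 1 and 7, a ratio of 5.95. It was far higher in libraries 3, 6 and 9, at 805 to 1043 CPM. Of 18 classical monocyte genes Ccr2 was the 1 that was apart and higher, and 4 were apart and lower, with a median of -0.43. Among those lower, the matrix protein gene Fn1 stood at 223.7 and 316.6 CPM in libraries 2 and 8, against 999.3 and 1730 CPM in libraries 1 and 7. Thbs1, which encodes thrombospondin, stood at 112.7 and 103.3 CPM in libraries 2 and 8, against 318.1 and 354.2 CPM in libraries 1 and 7. Which cells made the Fn1 and Thbs1 transcripts was not tested, and fibroblast and endothelial genes, given below, were lower in libraries 2 and 8 as well. Ly6c2, a surface marker of classical monocytes, overlapped, at 2.69 and 3.56 CPM in libraries 2 and 8 and at 3.41 and 3.58 CPM in libraries 1 and 7.

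Itgax, which encodes CD11c, stood at 106.4 and 136.6 CPM in libraries 2 and 8, against 13.2 and 7.11 CPM in libraries 1 and 7, a ratio of 11.9. Ccr7, which guides dendritic cells to lymph nodes, stood at 43.0 and 20.5 CPM in libraries 2 and 8, against 0 and 4.31 CPM in libraries 1 and 7. Both genes were highest in libraries 3, 6 and 9, Ccr7 at 208.9 to 288.3 CPM. These were the 2 of 12 dendritic cell genes that were apart and higher, while the peptidase gene Dpp4 was apart and lower, at 7.55 and 3.65 CPM in libraries 2 and 8, against 42.4 and 44.6 CPM in libraries 1 and 7. The growth factor receptor Flt3, which defines dendritic cells, was low throughout, at 3.15 and 2.14 CPM in libraries 2 and 8 and at 1.05 and 0.774 CPM in libraries 1 and 7. The dendritic cell factor Zbtb46 was lower in libraries 2 and 8, at 15.2 and 16.9 CPM, against 19.9 and 28.4 CPM in libraries 1 and 7. Fibroblast and endothelial genes, given below, were also lower in libraries 2 and 8, and which cells made the Dpp4 and Zbtb46 transcripts was not tested. The part of dendritic cells in the class II difference was not tested.

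A second group of higher genes was that of Kupffer cells, the macrophages of the liver, a list added after the values had been seen. Of 12 genes 8 were apart and higher, with a median difference of 1.76, and the summed level was 11860 and 11720 CPM in libraries 2 and 8, against 3165 and 5504 CPM in libraries 1 and 7. Clec4f, a lectin characteristic of mouse Kupffer cells, stood at 3220 and 3313 CPM in libraries 2 and 8, against 415.3 and 1023 CPM in libraries 1 and 7. Cd5l, a secreted scavenger protein that inhibits apoptosis of macrophages, stood at 3731 and 3159 CPM in libraries 2 and 8, against 554 and 1035 CPM in libraries 1 and 7. In libraries 3, 6 and 9 Clec4f reached at most 1.98 CPM and Cd5l at most 2.46 CPM, so these genes were found at high levels in all 4 libraries of both pairs and not in the other diaphragm libraries.

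All 12 Kupffer cell genes were higher in library 7 than in library 1, with a ratio of summed levels of 1.74, whereas 6 were higher in library 2 and 6 in library 8. Vsig4, a complement receptor of resident macrophages, stood at 1056 and 997.5 CPM in libraries 2 and 8, against 377.6 and 474.4 CPM in libraries 1 and 7. C6, a component of the membrane attack complex, stood at 286.5 and 302.2 CPM in libraries 2 and 8, against 54.3 and 90.6 CPM in libraries 1 and 7. Il18bp, the soluble inhibitor of interleukin 18, stood at 233 and 224.7 CPM in libraries 2 and 8, against 50.0 and 57.6 CPM in libraries 1 and 7. Fcna, the lectin ficolin A of the complement system, was the 1 gene of the list that overlapped between the pairs.

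Transcripts of hepatocytes did not separate the pairs. The 7 genes of liver plasma proteins summed to 370.6 and 669 CPM in libraries 2 and 8 and to 342.8 and 684 CPM in libraries 1 and 7, and none was apart. Alb, the albumin gene, stood at 283.5 and 520 CPM in libraries 2 and 8 and at 274.2 and 535.2 CPM in libraries 1 and 7. It was high in libraries 8 and 7 and low in libraries 2 and 1, a split across both pairs. In libraries 3, 6 and 9 the sum was 233.9 to 633 CPM, and Clec4f was near 0 there. Genes of liver sinusoidal endothelium, also listed after values were seen, were lower for the 3 of 5 that were apart. Clec4g, a lectin of these cells, stood at 4.63 and 14.96 CPM in libraries 2 and 8, against 183.8 and 176 CPM in libraries 1 and 7. The part of liver cells in any difference was not tested.

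Iron handling included 2 genes of this group. Slc40a1, which encodes the iron exporter ferroportin, stood at 1202 and 1385 CPM in libraries 2 and 8, against 259.7 and 573 CPM in libraries 1 and 7. Spic, a transcription factor of red pulp and Kupffer macrophages, stood at 84.6 and 65.4 CPM in libraries 2 and 8, against 20.4 and 25.1 CPM in libraries 1 and 7. They were the only members of 15 iron and heme genes that were apart. The heme-degrading enzyme Hmox1 stood at 1569 and 1457 CPM in libraries 2 and 8, against 1362 and 1158 CPM in libraries 1 and 7, and the transferrin receptor Tfrc overlapped.

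Most listed genes of macrophages of the peritoneal cavity, which borders the diaphragm, were apart in the opposite direction. The part of these macrophages in the difference was not tested. Of 11 large peritoneal macrophage genes 7 were apart and lower, with a median of -2.49. Alox15, a lipoxygenase of resident peritoneal macrophages, stood at 1.90 and 3.10 CPM in libraries 2 and 8, against 91.7 and 83.0 CPM in libraries 1 and 7, a ratio of 34.9 in favour of libraries 1 and 7. Gata6, their defining transcription factor, stood at 3.29 and 3.60 CPM in libraries 2 and 8, against 28.9 and 19.8 CPM in libraries 1 and 7. Prg4, which encodes the lubricant lubricin, stood at 5.79 and 6.61 CPM in libraries 2 and 8, against 98.3 and 116.6 CPM in libraries 1 and 7. The summed level of this list went the other way, 4353 and 3817 CPM in libraries 2 and 8 against 1286 and 1922 CPM in libraries 1 and 7, because the list also holds Cd5l.

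The Lyve1-type resident signature did not separate the pairs as a whole. Of its 20 genes 1 was apart, Vsig4, while 6 were higher in both of libraries 2 and 8, 8 were lower and 6 overlapped, and the median difference was 0.06, or -0.10 with library totals as the scaling. Lyve1 itself stood at 782.9 and 849.9 CPM in libraries 2 and 8, against 1451 and 1544 CPM in libraries 1 and 7, a gap between pairs of under 2-fold. The mannose receptor Mrc1 overlapped, at 2106 and 2058 CPM in libraries 2 and 8 and at 1950 and 2200 CPM in libraries 1 and 7. The folate receptor Folr2 also overlapped, at 1379 and 1511 CPM in libraries 2 and 8 and at 1260 and 1404 CPM in libraries 1 and 7. The summed level was 22840 and 22270 CPM in libraries 2 and 8 and 25300 and 26290 CPM in libraries 1 and 7, against 7839 to 8693 CPM in libraries 3, 6 and 9. Both pairs therefore carried this signature at a similar level.

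Scavenger and uptake receptors were mixed. Of 14 scavenger receptor genes Cd5l was apart and higher, and the receptors Scara5 and Scara3 were apart and lower. Scara5, a ferritin receptor also made by fibroblasts, stood at 5.19 and 9.81 CPM in libraries 2 and 8, against 150.9 and 90 CPM in libraries 1 and 7. Cd163, the receptor for haptoglobin-bound hemoglobin, stood at 1313 and 1296 CPM in libraries 2 and 8 and at 1140 and 1295 CPM in libraries 1 and 7, almost equal. Among 11 genes of the TAM receptors and apoptotic cell uptake, Axl, a receptor tyrosine kinase, was apart and higher, at 1330 and 1360 CPM in libraries 2 and 8, against 426.2 and 541.4 CPM in libraries 1 and 7. Its relative Mertk stood at 219.7 and 201.1 CPM in libraries 2 and 8, against 100.5 and 137.5 CPM in libraries 1 and 7, and was not apart.

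Lists of innate receptors held few genes that were apart. Of 17 C-type lectin genes 3 were apart, Cd207, Clec7a and Clec4b1. Clec7a, which encodes the beta-glucan receptor dectin-1, stood at 352.3 and 299.4 CPM in libraries 2 and 8, against 69.8 and 108.9 CPM in libraries 1 and 7. Of 6 Fc gamma receptor genes only Fcgr4, an activating receptor for IgG, was apart, at 245 and 193.8 CPM in libraries 2 and 8, against 43.9 and 70.2 CPM in libraries 1 and 7. Tlr1, a partner of Tlr2 in lipopeptide sensing, was the 1 of 19 Toll-like receptor and adaptor genes that was apart, at 49.6 and 39.0 CPM in libraries 2 and 8, against 17 and 14.9 CPM in libraries 1 and 7. The lipopolysaccharide receptor Tlr4 and the adaptor Myd88 overlapped. Of 18 complement genes, C6 and Itgax, a complement receptor chain, were apart and higher, and the C1 inhibitor Serping1 was apart and lower, at 18.7 and 43.6 CPM in libraries 2 and 8, against 458.1 and 325.5 CPM in libraries 1 and 7.

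Cytokine and chemokine genes held a few differences among many that overlapped. Il1b, the main secreted form of interleukin 1, stood at 1905 and 1484 CPM in libraries 2 and 8, against 643.2 and 645.2 CPM in libraries 1 and 7. Il12b, a subunit of interleukins 12 and 23, was low, at 3.06 and 5.201 CPM in libraries 2 and 8, against 0 and 0.295 CPM in libraries 1 and 7. Csf1, the growth factor for macrophages that stromal cells make, was apart and lower, at 13.7 and 14.4 CPM in libraries 2 and 8, against 58.6 and 46.5 CPM in libraries 1 and 7. The other 12 of 15 cytokine genes were not apart, among them Il6, at 196.4 and 110.3 CPM in libraries 2 and 8 and at 127.6 and 109.7 CPM in libraries 1 and 7.

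Among 12 CC chemokine genes Ccl22, Ccl5 and Ccl8 were apart and higher. Ccl22, which attracts regulatory T cells, stood at 55.4 and 33.1 CPM in libraries 2 and 8, against 3.86 and 11.7 CPM in libraries 1 and 7. Ccl8, an attractant for monocytes and T cells, stood at 154.9 and 164.6 CPM in libraries 2 and 8, against 51.1 and 48.9 CPM in libraries 1 and 7, and was at most 7.21 CPM in libraries 3, 6 and 9. The monocyte attractant Ccl2 overlapped, at 1361 and 1240 CPM in libraries 2 and 8 and at 1428 and 1127 CPM in libraries 1 and 7. None of 10 CXC chemokine genes was apart, and the neutrophil attractants Cxcl1 and Cxcl2 overlapped.

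Of 15 interferon-stimulated genes 1 was apart, Irf7, which was higher in libraries 2 and 8. The median difference of the list was 0.65, and the sum was 1935 and 1665 CPM in libraries 2 and 8, against 947.3 and 1053 CPM in libraries 1 and 7. Irf7, the amplifier of the interferon response, stood at 458.2 and 414.5 CPM in libraries 2 and 8, against 108.7 and 148 CPM in libraries 1 and 7. All 15 genes were higher in library 2 than in library 8, so this list also varied within the pair. Ifit1 and Usp18, both induced by interferon, overlapped.

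Lipid handling had 5 of 16 genes apart and higher and 2 apart and lower. Nr1h3, the oxysterol receptor LXR alpha, stood at 285.5 and 294.8 CPM in libraries 2 and 8, against 48.5 and 99.0 CPM in libraries 1 and 7. Abcg1, a cholesterol exporter controlled by LXR, stood at 153.3 and 153.9 CPM in libraries 2 and 8, against 51.3 and 68.0 CPM in libraries 1 and 7. Gpnmb, a glycoprotein of lipid-laden macrophages, stood at 41.95 and 69.3 CPM in libraries 2 and 8, against 9.36 and 15.1 CPM in libraries 1 and 7. The fatty acid binding proteins went apart in opposite directions. Fabp5 stood at 43.1 and 56.6 CPM in libraries 2 and 8, against 14.2 and 9.14 CPM in libraries 1 and 7. Fabp4, also a gene of capillary endothelium and fat, stood at 41.6 and 35.9 CPM in libraries 2 and 8, against 142.4 and 99.2 CPM in libraries 1 and 7. The lipid sensor Trem2 overlapped.

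Several programmes showed no gap. No member was apart among 19 immediate early and stress genes, 18 glycolysis and hypoxia genes and 16 genes of cholesterol synthesis and uptake. Immediate early genes, which respond to handling of cells, summed to 29090 and 28370 CPM in libraries 2 and 8 and to 29460 and 29290 CPM in libraries 1 and 7. Of 20 cell cycle genes 1 was apart, the proliferation antigen Mki67, at 20.1 and 13.2 CPM in libraries 2 and 8, against 5.91 and 5.16 CPM in libraries 1 and 7. The other lists of the macrophage lineage held few. Of 21 transcription factors Nr1h3 and Spic were apart and higher and Gata6 lower. Of 15 alternative activation genes Ccl22 was apart and higher, and the chitinase-like Chil3 and the signalling inhibitor Socs2 were lower. Retnla, the alternative activation protein RELM alpha, stood at 2137 and 2069 CPM in libraries 2 and 8, against 1128 and 977.7 CPM in libraries 1 and 7, and was not apart. Vegfc, the lymphatic growth factor, was the 1 of 14 growth factor genes that was apart, and it was lower. Sparc, a matrix protein of many stromal cells, was the 1 of 9 microglia-type genes that was apart, at 117.9 and 193.8 CPM in libraries 2 and 8, against 2292 and 1123 CPM in libraries 1 and 7. Of 12 cathepsin genes only Ctsk, the collagen-degrading cathepsin, was apart, and it was lower, at 2.08 and 3.60 CPM in libraries 2 and 8, against 37.8 and 20.5 CPM in libraries 1 and 7. Across all measured genes 1.76% were apart and higher and 8.04% apart and lower. A single lower gene in a list of 9, 12 or 14 is thus near the share of all genes.

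**Figure D3:**
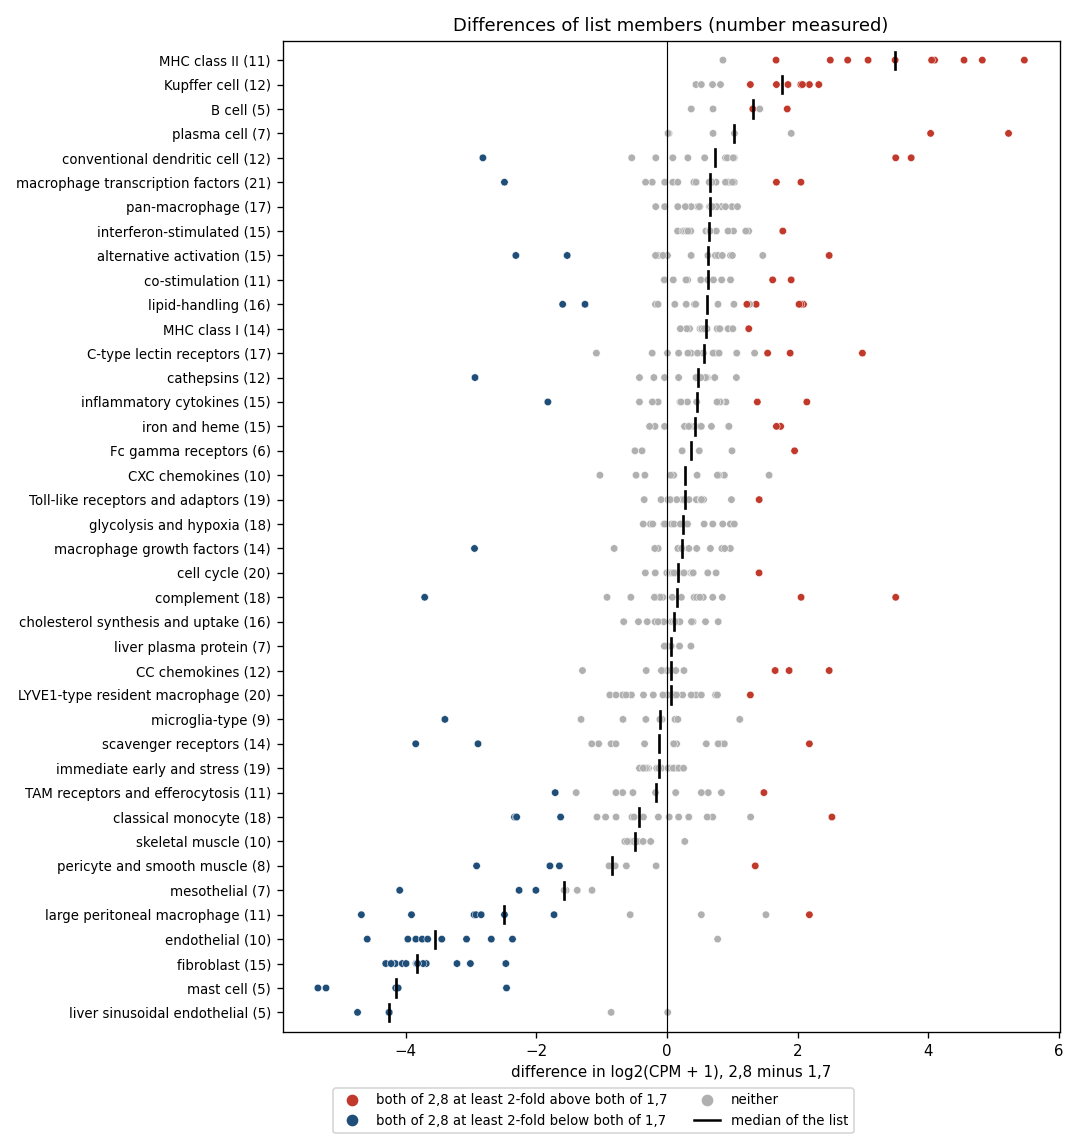
Differences in log2(CPM + 1), libraries 2 and 8 minus libraries 1 and 7, for the measured members of every list with at least 5 measured genes, with lists in order of their median (black bar). Red points are apart and higher in libraries 2 and 8, blue points apart and lower, grey points neither, and MHC class II stands at the top while mast cell, fibroblast and endothelial genes stand near the bottom.

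Several marker lists of other cell types had most of their members apart and lower. All 15 fibroblast genes were apart and lower, with a median difference of -3.83, and their summed level was 602.2 and 974 CPM in libraries 2 and 8, against 17770 and 8747 CPM in libraries 1 and 7. Col3a1, a fibrillar collagen, stood at 101.1 and 214.2 CPM in libraries 2 and 8, against 4275 and 2006 CPM in libraries 1 and 7. Dcn, the proteoglycan decorin, stood at 111.3 and 150 CPM in libraries 2 and 8, against 2196 and 1275 CPM in libraries 1 and 7. Pdgfra, the receptor that defines fibroblasts, stood at 2.27 and 9.08 CPM in libraries 2 and 8, against 130.8 and 86.1 CPM in libraries 1 and 7. All 15 genes were higher in library 1 than in library 7, and 13 of 15 were higher in library 8 than in library 2, so the fibroblast level also varied within pairs. In libraries 3, 6 and 9 it was 356.3 to 918.9 CPM, a range that overlapped that of libraries 2 and 8 and reached below it.

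Endothelial genes were lower in libraries 2 and 8 for 9 of 10 members. Vwf, the clotting factor carrier stored in endothelium, stood at 60.3 and 84.6 CPM in libraries 2 and 8, against 1820 and 1665 CPM in libraries 1 and 7, a ratio of 24.0 in favour of libraries 1 and 7. Kdr, the receptor for VEGF, stood at 6.48 and 20.9 CPM in libraries 2 and 8, against 159.2 and 183.5 CPM in libraries 1 and 7. The exception was the cadherin gene Cdh5, at 368 and 385.8 CPM in libraries 2 and 8, against 208.4 and 231.7 CPM in libraries 1 and 7. The list summed to 534.7 and 613.7 CPM in libraries 2 and 8, against 3096 and 2930 CPM in libraries 1 and 7, and to 45.9 to 176.7 CPM in libraries 3, 6 and 9.

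All 5 measured mast cell genes were apart and lower, and their sum was 1.99 and 4.06 CPM in libraries 2 and 8, against 106.5 and 170.3 CPM in libraries 1 and 7. The protease gene Mcpt4 had no count in libraries 2 and 8, against 34.3 and 45.6 CPM in libraries 1 and 7, and was at least 288-fold lower against the level of 3 counts per library. The tryptase gene Tpsb2 likewise had no count in libraries 2 and 8, against 24.2 and 53.9 CPM in libraries 1 and 7, and was at least 281-fold lower. Of 7 mesothelial genes 3 were apart and lower, and the sum was 1.67 and 8.44 CPM in libraries 2 and 8, against 35 and 74.4 CPM in libraries 1 and 7. Of 4 lymphatic endothelial genes 3 were apart and lower. Among 8 genes of pericytes and smooth muscle Pdgfrb, Cspg4 and Acta2 were apart and lower, while Rgs5, a G protein regulator of pericytes, was apart and higher, at 36.2 and 34.99 CPM in libraries 2 and 8, against 16.6 and 10.7 CPM in libraries 1 and 7.

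Skeletal muscle, the bulk of the tissue, did not separate the pairs. None of its 10 measured genes was apart, and they summed to 255 and 141.4 CPM in libraries 2 and 8 and to 320.3 and 184 CPM in libraries 1 and 7. All 10 genes were higher in library 2 than in library 8 and in library 1 than in library 7, so muscle varied within both pairs in the order opposite to that of Alb. No measured gene of satellite cells, Schwann cells or adipocytes was apart. The 3 measured erythroid genes overlapped as well, at a sum of 8.38 and 0.821 CPM in libraries 2 and 8 and of 2.59 and 25.1 CPM in libraries 1 and 7.

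Some lymphocyte and neutrophil genes were also higher in libraries 2 and 8. Igkc, the immunoglobulin kappa constant region, stood at 110.5 and 131.9 CPM in libraries 2 and 8, against 1.86 and 2.69 CPM in libraries 1 and 7, a ratio of 53.2. Jchain, which joins IgA and IgM units and is a plasma cell gene, stood at 24.1 and 15.97 CPM in libraries 2 and 8, against 0.0455 and 0.516 CPM in libraries 1 and 7. These were the 2 of 7 plasma cell genes that were apart, and the list summed to 694.1 and 780.7 CPM in libraries 2 and 8, against 417.5 and 457.8 CPM in libraries 1 and 7. The plasma cell factors Xbp1 and Tnfrsf17 overlapped between the pairs, Tnfrsf17 at 10.6 and 6.43 CPM in libraries 2 and 8 and at 8.27 and 8.07 CPM in libraries 1 and 7. Of 5 B cell genes Cd79a and Cd79b, which signal for the antigen receptor, were apart and higher, and the list summed to 365.6 and 490.6 CPM in libraries 2 and 8, against 251.2 and 245.8 CPM in libraries 1 and 7. Cd79a was low, at 4.12 and 4.65 CPM in libraries 2 and 8, against 0.0909 and 1.07 CPM in libraries 1 and 7. Cd4, which macrophages can also express, stood at 137.1 and 134 CPM in libraries 2 and 8, against 57.7 and 50.8 CPM in libraries 1 and 7. All 3 measured neutrophil genes were higher in both of libraries 2 and 8, with a median difference of 1.46, and none was apart. The list summed to 809.2 and 1099 CPM in libraries 2 and 8, against 219.4 and 590.2 CPM in libraries 1 and 7. Most of this sum was Mmp9, a gelatinase that macrophages can also make, at 758.7 and 1021 CPM in libraries 2 and 8, against 183.7 and 553.9 CPM in libraries 1 and 7, while the defining neutrophil genes Ly6g and Camp had no count in any of the 4 libraries. No measured eosinophil gene was apart. The part of lymphocytes and neutrophils in any difference was not tested.

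Of all 225 genes that were apart and higher, 14 belonged to a list of Kupffer cells or of another cell type, 8 of them to the Kupffer cell list. Of the 1028 that were apart and lower, 41 belonged to such a list. In no list at all were 177 of the higher and 964 of the lower genes. The class II genes and the fibroblast, endothelial and mast cell genes thus moved in opposite directions between the same libraries. Scaling factors computed without the marker genes of other cell types changed the median difference of all genes by -0.0008. Most of the lower genes stayed in that computation, so it cannot show whether admixed cells affect the scaling. The 17 general macrophage genes summed to 30590 and 30140 CPM in libraries 2 and 8, against 22690 and 23400 CPM in libraries 1 and 7, a ratio of 1.32. The part of admixed cells in the lower genes was not tested.

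The dural libraries had no part in forming the diaphragm pairs, and P5 was set against P4 there as a measurement of the same genes in other samples. The choice of P5 and P4 was made with earlier results of these data known. A direction shared by both tissues, that of the class II genes among them, is therefore not an independent check of the diaphragm difference. The labels do not say that these libraries came from separate mice, so the p-values measure the spread between libraries, which may be technical. In a quasi-likelihood test in edgeR over 13239 genes, 409 genes (3.09%) rose in P5 and 564 (4.26%) fell at an adjusted p under 0.05. With library totals as the scaling 231 rose and 811 fell. The counts depended on single libraries, which carry the numbers 1, 3 and 4. Without library 3 of P5 219 genes rose and 325 fell, without library 3 of P4 272 rose and 285 fell, without library 1 of P5 374 fell, and without library 4 of P5 310 fell.

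Genes that were apart in the diaphragm can be read against those shares of all tested genes. Of the 225 higher genes 201 were tested in the dura, where 78 (38.8%) rose and 7 (3.48%) fell, with a median log2 fold change of 0.59. Of the 1028 lower genes 907 were tested, where none rose at the adjusted threshold in edgeR and 288 (31.8%) fell, with a median of -1.17.

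MHC class II genes rose from P4 to P5, marks that were chosen with earlier results known. H2-Ab1 stood at 10300, 10380 and 9622 CPM in P5, against 940.2, 1101 and 1059 CPM in P4, a log2 fold change of 3.29 ± 0.064 (SE; edgeR, adjusted p = 1.33e-11). The P5 and P4 libraries did not overlap and lay about an order of magnitude apart. Ciita stood at 121.2, 133.2 and 164.8 CPM in P5, against 15.7, 26.1 and 22.2 CPM in P4, a log2 fold change of 2.71 ± 0.18 (SE; edgeR, adjusted p = 6.18e-06). In all 10 of 11 class II genes rose, and H2-Oa, at 1.84 ± 0.74 (SE), did not pass (edgeR, adjusted p = 0.183). The calls of H2-Eb2 (log2 fold change 3.51; edgeR, adjusted p = 0.0414) and H2-Ob (log2 fold change 0.78; edgeR, adjusted p = 0.0298) were lost under several alternatives that kept their direction. With P4 and P5 libraries alone in the fit, edgeR gave log2 fold changes of 3.51 for H2-Eb2 (adjusted p = 0.0713) and 0.78 for H2-Ob (adjusted p = 0.0647), and with library totals 0.65 for H2-Ob (adjusted p = 0.0647). For H2-Eb2 the adjusted p in edgeR was 0.0886 or 0.0964 without library 1 or 4 of P4, and 0.0767, 0.122 or 0.106 without library 1, 3 or 4 of P5, with fold changes between 2.90 and 3.61. For H2-Ob it was 0.0887 or 0.0853 without library 1 or 4 of P4, and 0.103 or 0.114 without library 3 or 4 of P5, with fold changes between 0.66 and 0.77.

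Other genes with the same direction in both tissues included Ccr2, Itgax and Lyve1. Ccr2 stood at 277.8, 274.1 and 247.9 CPM in P5, against 103.6, 47.8 and 33.2 CPM in P4 (log2 fold change 2.13 ± 0.30 SE; edgeR, adjusted p = 0.00114). Itgax stood at 32.8, 32.8 and 24.7 CPM in P5, against 10.49, 2.88 and 3.76 CPM in P4 (log2 fold change 2.46 ± 0.34 SE; edgeR, adjusted p = 0.00104). H2-M2, Cd274, Clec7a, Fcgr4 and Axl also rose, with log2 fold changes between 0.63 for Axl and 5.42 for H2-M2 (edgeR, adjusted p at most 0.00462). Col1a1 fell, with 199.3, 270.1 and 235.6 CPM in P5, against 1099, 1329 and 782.8 CPM in P4 (log2 fold change -2.18 ± 0.21 SE; edgeR, adjusted p = 9.84e-05). Of 15 fibroblast genes 11 fell, and their summed level was 693.4 to 903.4 CPM in P5, against 2485 to 4618 CPM in P4, so fibroblast transcripts and class II genes moved in opposite directions in this tissue too. Lyve1 fell in the dura, at 80.2, 88.9 and 130.7 CPM in P5, against 287.1, 248.8 and 282.4 CPM in P4 (log2 fold change -1.44 ± 0.29 SE; edgeR, adjusted p = 0.00939), and 7 of 20 genes of its list fell and none rose. Mcpt4 also fell, at 7.02, 4.98 and 4.11 CPM in P5, against 51.9, 40.9 and 10.46 CPM in P4 (log2 fold change -2.69 ± 0.47 SE; edgeR, adjusted p = 0.00431).

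Other differences of the diaphragm pairs were not called in the dura, or ran the other way. None of 10 endothelial genes was called in edgeR, which is near the 4.26% of all tested genes that fell. Their median log2 fold change was -0.57, in the same direction as in the diaphragm. Vwf stood at 81.9, 112.2 and 32.5 CPM in P5 and at 24.6, 103.1 and 116 CPM in P4 (log2 fold change -0.12 ± 0.98 SE; edgeR, adjusted p = 0.971), an interval too wide to exclude a change in either direction. Clec4f was at most 0.158 CPM in P5 and at most 0.111 CPM in P4 and was not tested. Cd207 had no count in P5 and reached at most 0.387 CPM in P4. Both genes were thus very low in the dura. Slc40a1, higher in diaphragm libraries 2 and 8, fell in the dura, at 247.3, 296 and 298.6 CPM in P5, against 634.5, 613.6 and 720.3 CPM in P4 (log2 fold change -1.22 ± 0.11 SE; edgeR, adjusted p = 6.2e-05). Vsig4, likewise higher in libraries 2 and 8, fell too, at 0.676, 1.503 and 1.995 CPM in P5, against 16.6, 10.1 and 9.91 CPM in P4 (log2 fold change -3.08 ± 0.56 SE; edgeR, adjusted p = 0.00567). For neither gene did the P5 and P4 libraries overlap. Irf7 did not pass in the dura (log2 fold change 0.07 ± 0.20 SE; edgeR, adjusted p = 0.903). None of 15 interferon-stimulated genes was called, which is near the 3.09% of all tested genes that rose. The difference between tissues was not tested for any gene.

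**Figure D4:**
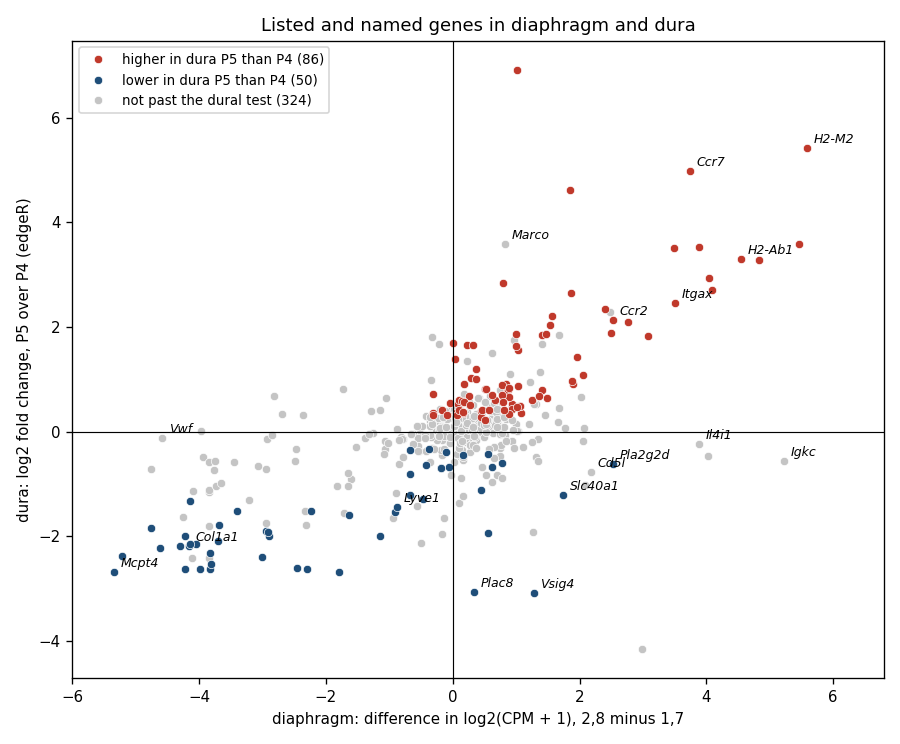
Each point is 1 of 460 listed or named genes, with the difference in log2(CPM + 1) between diaphragm libraries 2 and 8 and libraries 1 and 7 on the x axis and the log2 fold change of dura P5 over P4 on the y axis. Of these genes 86 rose (red), 50 fell (blue) and 324 were not past the dural test (grey), with H2-Ab1 at the upper right, Col1a1 at the lower left, and Vsig4, Slc40a1 and Pla2g2d at the lower right.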

How the data were processed

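Bulk RNA-seq of sorted mouse macrophages was used as the count table that the authors deposited, which holds whole-number counts for 41388 genes, 40254 of them with a symbol, in 24 columns. Per the submitters' processing notes, STAR 2.4.0j, featureCounts, DESeq2 1.20.0 and the build GRCm38 were used; the settings were not stated. Diaphragm columns of the same number were summed because they differed by about the sampling noise, and counted as 1 sample. Columns 4 and 5, under 10000 counts each, were left out. CPM were computed with TMM factors over 16 libraries (edgeR 4.0.16, R 4.3.3); libraries used held 10457920 to 30132295 counts. Dura P5 and P4 were compared with edgeR's quasi-likelihood test (filterByExpr, two-sided, Benjamini-Hochberg) fitted on 9 dural libraries, including P6, and tested on simulated data. Alternatives included other scalings, filters, DESeq2 1.42.0 and limma-voom (limma 3.58.1).

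The members, the P5 and P4 comparison and the 48 gene lists were chosen with earlier results of these data known, and the Kupffer cell, liver sinusoidal endothelial and plasma cell lists were added after values were seen, as were upper-quartile scaling in the dura and the count at 20 CPM in both pairs. Named genes were the 4 markers, the 10 highest and 10 lowest differences among genes apart, the same with at least 20 CPM in both pairs, up to 4 apart and 2 overlapping genes per list and all MHC class II genes. Other list members named, such as Lyve1 and Csf1r, were picked after their values were seen. Promoter sequences are from RefSeq (GRCm38.p6).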

Additional observations from a re-analysis of the deposited data

How the results depend on the processing

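A 4-fold gap left 40 genes apart and higher and 462 lower. At least 20 CPM in both pairs left 81 higher and 91 lower, but this filter removes genes by the difference itself and is no check of the balance. Leaving out 1 of the 4 libraries gave 316 to 515 higher and 1207 to 1373 lower. In the dura P5 against P4, library totals gave 231 rises, no filter 702 rises and 885 falls, and DESeq2 629 rises, while leaving out 1 library gave 219 to 359 rises and 285 to 539 falls. With the number in the column name as a replicate block 794 rose and 782 fell. Correlations of deviations from group means were 0.0721, 0.102 and 0.164 for same-numbered libraries, all above those of different numbers, which is a hint from the data and not from the design. Of 664 values of list medians 15 changed sign, in 9 lists. With library totals these were complement at -0.0058, cholesterol synthesis and uptake at -0.031, LYVE1-type genes at -0.10, CC chemokines at -0.10 and liver plasma proteins at -0.090. With 1 library left out they were microglia-type genes from -0.34 (without library 2) to 0.076 (without 8), skeletal muscle from -0.98 (without 2) to 0.061 (without 8), the 1 adipocyte gene from -0.49 (without 7) to 0.064 (without 8), erythroid genes from -2.10 (without 1) to 0.39 (without 7), LYVE1-type genes from -0.041 (without 1) to 0.11 (without 7), CC chemokines from -0.033 (without 2) to 0.20 (without 1) and liver plasma proteins from -0.40 (without 1) to 0.66 (without 7). The cause was not tested. Of 2016 values of 168 named genes in the diaphragm 54 moved by more than the spread within pairs, and 96 changed sign, none of them of a gene that was apart. Of 2025 values in the dura 61 fell short of the threshold and 97 passed it where the main value did not, and 53 changed sign, none of them of a called gene. With 2 libraries on each side, chosen with values in view, the diaphragm differences carry no measure of chance. Genes near 3 counts per library are limited by depth.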

Other observations

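Genes outside the lists, picked after their values were seen as the 15 most abundant in each direction with at least 20 CPM in both pairs, had no shared function that was tested. Among the 15 that were apart and higher, Mpeg1, which encodes the pore-forming protein perforin-2, stood at 2238 and 2150 CPM in libraries 2 and 8, against 449.7 and 606.7 CPM in libraries 1 and 7. Psap, the precursor of lysosomal saposins, stood at 7712 and 8085 CPM in libraries 2 and 8, against 3529 and 3807 CPM in libraries 1 and 7. Lyz1, a lysozyme gene with a near-identical copy in Lyz2, stood at 384.4 and 619.2 CPM in libraries 2 and 8, against 57.5 and 185.3 CPM in libraries 1 and 7. Plbd1, a phospholipase B-like protein, stood at 729.6 and 716.9 CPM in libraries 2 and 8, against 134.7 and 136.2 CPM in libraries 1 and 7. Of these 15 genes 9 rose in the dura, where 3.09% of all tested genes rose, and 2 fell, Pla2g2d and Actn1, which encodes an actin crosslinker (log2 fold change -0.64; edgeR, adjusted p = 0.0269).

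Pla2g2d, a secreted phospholipase, was apart and higher in the diaphragm, at 721.4 and 714.2 CPM in libraries 2 and 8, against 117 and 130.8 CPM in libraries 1 and 7, and fell in the dura, at 569.8, 632.6 and 593.3 CPM in P5, against 895.3, 936.1 and 946.7 CPM in P4 (edgeR, adjusted p = 0.00867). Il4i1, an amino acid oxidase of antigen-presenting cells, stood at 152.9 and 237.9 CPM in libraries 2 and 8, against 6.23 and 22.3 CPM in libraries 1 and 7, a ratio of 13.7, and did not pass in the dura (edgeR, adjusted p = 0.601).

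Among the most abundant lower genes outside the lists, Gsn, the actin-severing protein gelsolin, stood at 278.9 and 355.6 CPM in libraries 2 and 8, against 4541 and 2538 CPM in libraries 1 and 7. Aqp1, a water channel of endothelium and mesothelium, stood at 60.2 and 72.5 CPM in libraries 2 and 8, against 945.8 and 893 CPM in libraries 1 and 7. Bgn, the matrix proteoglycan biglycan, stood at 63.5 and 114.3 CPM in libraries 2 and 8, against 1247 and 835.6 CPM in libraries 1 and 7. Of these 15 genes 7 fell in the dura, where 4.26% of all tested genes fell.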
